A study of Mus musculus with 8 samples.

Results

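Solute carriers are membrane proteins that move amino acids, sugars, metals, nucleosides, ions and metabolic intermediates across the plasma membrane or the membranes of organelles. Their genes carry symbols that begin with Slc. Of 151 such genes with a probe set of 1 gene symbol on the array, 50 had a mean log2 intensity of 6.5 or more over all 8 arrays, and these 50 are described here. They were selected on that measured level, with each gene represented by its brightest probe set, so their levels are a description and support nothing. The Slc genes had 185 probe sets in all, and 1 further probe set that names an Slc gene beside another gene was left out. Across the whole array 3524 of 8251 genes (42.7%) lay at or above the same level, against 33.1% of the Slc genes. Just inside the limit were the glucose carrier genes Slc2a3, at a mean of 6.53, and Slc2a8, at 6.51. Just outside were Slc27a1, which lay so close below the limit that it rounds to it, and Slc44a4, at 6.43.

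Carriers set which nutrients a dendritic cell can take up, and so touch on the study's subject, cells competent for the tryptophan-degrading enzyme indoleamine 2,3-dioxygenase. Tryptophan enters many cells through Slc7a5, a carrier of large neutral amino acids that needs the glycoprotein encoded by Slc3a2 to reach the plasma membrane. Slc11a1 works in the membrane of phagosomes and lysosomes, where it moves iron and manganese, and is best known from macrophages. Most carriers of family SLC25 exchange metabolites across the inner mitochondrial membrane.

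RNA was taken from CD8+ dendritic cells purified from the spleens of female DBA/2J mice, 60 days old. Every mouse had been given Flt3-L (10 µg, for 9 days), which makes dendritic cells multiply in the animal, so all groups share this treatment. The cells were then kept in medium or in 200 U/ml of mouse IFN-gamma, and were collected after 4 or after 16 hours. Each of the 4 groups has 2 arrays (array 1 and array 2), and uncultured cells are not among the groups. The labels do not say whether both arrays of a group came from different mice or cultures, so the p-values here reflect how far these arrays differ, possibly for technical reasons alone. The small number of arrays limits the precision. RNA from the whole culture was measured, so that fewer cells of one type and less RNA per cell cannot be told apart.

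Among 11 measured markers of CD8+ dendritic cells, 8 lay in every group above the antisense controls, probe sets that should bind no transcript. Cd8a had group means of 8.80 to 8.99 in log2 intensity and Itgax of 6.24 to 6.48, while Xcr1, Itgae and Zbtb46 lay at or below the antisense level. Markers of other cells lay above it too, in every group all 8 of neutrophils, 6 of 7 of B cells and 5 or 6 of 6 of T cells. Summed intensities were 4120 to 5270 for neutrophil, 6320 to 8480 for B cell and 3470 to 5050 for CD8+ dendritic cell markers. Such sums depend on the genes listed, and the part of other cells in the carrier levels was not tested. The median of the 15 antisense probe sets was between 5.49 and 5.93 on the log2 scale over the arrays, below the limit of 6.5, and the highest of these, 5.93, is the antisense level referred to here. Actb has probe sets at either end of its transcript, and the signal at the 3' end over that at the 5' end, which rises as RNA degrades, was 2.04 and 2.2 in medium at 4 hours and 1.47 to 1.68 on the other 6 arrays; its part in the results was not tested. The difference between the 2 arrays of a group, over the 50 genes, had an SD of 0.16 and 0.14 at 4 hours in medium and IFN-gamma, and of 0.22 and 0.30 at 16 hours. Its largest values were those of Slc38a2, 0.81 and 1.38 at 16 hours.

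The level of most of the 50 genes was steady over the 4 groups. The range of the group means was under 0.5 log2 units for 42 of them, with a median range of 0.24, and 9 had at least 1 group mean below 6.5. The 50 were put into classes by SLC family number, which need not give the substrate or the place of each gene. So classed, 11 count as amino acid carriers, 11 as mitochondrial carriers and 7 as metal carriers. The classes of nucleosides and vitamins, of ions and of nucleotide sugars hold 4 each. Those of sugars, of lipids and acyl groups, and of phosphate and organic anions hold 3, 2 and 1. Another 3 fit none of these classes, and one of them, Slc9a3r1, encodes a scaffold protein and no carrier. The brightest probe sets were those of Slc25a4, Slc3a2, Slc9a3r1, Slc30a3, Slc39a4, Slc35b1, Slc6a6 and Slc6a9, with means of 9.43, 9.35, 9.00, 8.37, 8.18, 8.09, 7.99 and 7.98, though brightness also depends on the probes.

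**Figure D1:**
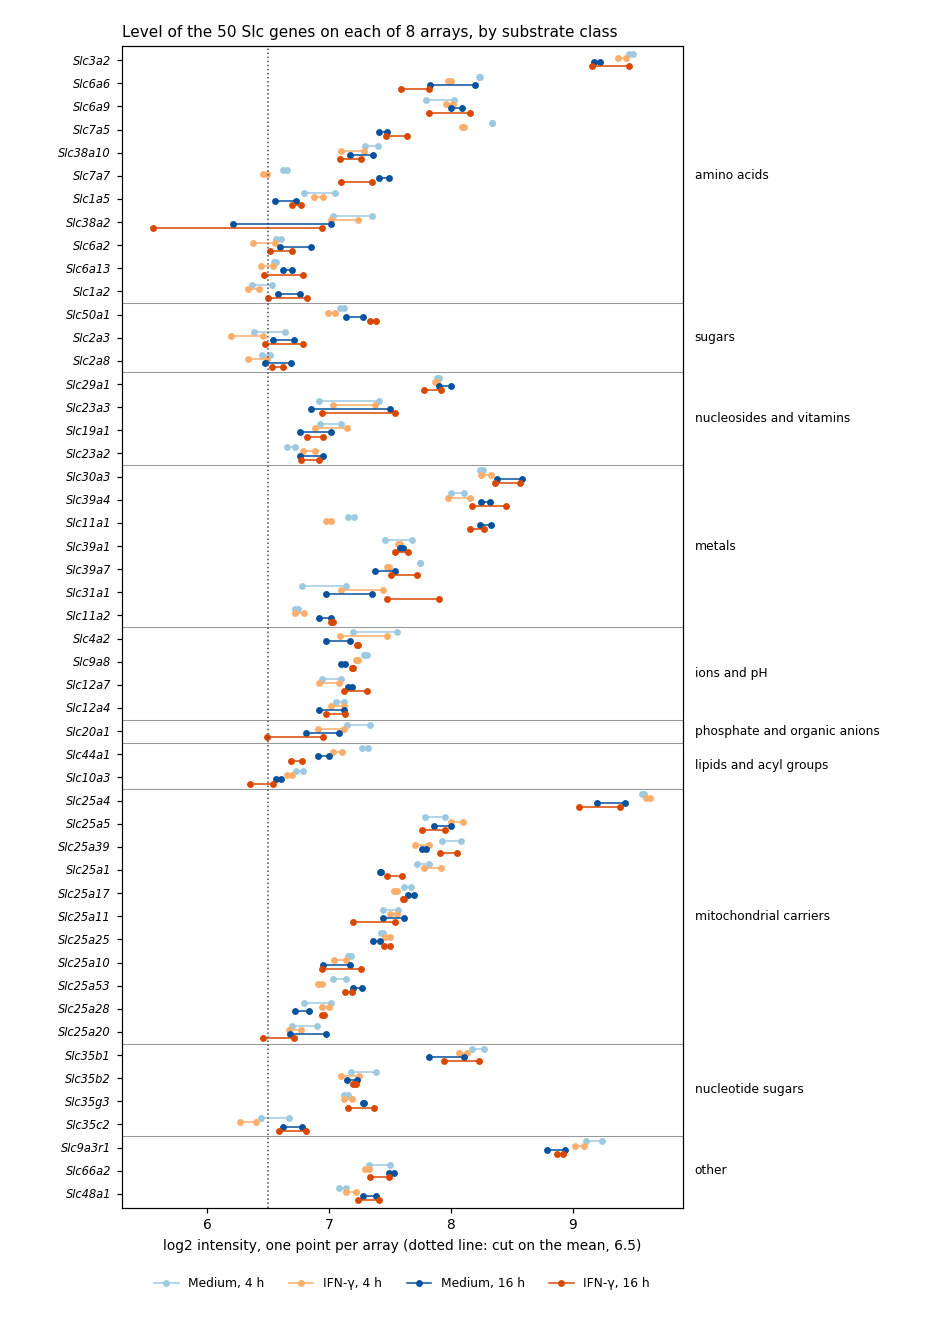
Log2 intensity (horizontal axis) of each of the 50 Slc genes on each of the 8 arrays, with genes grouped by substrate class; points of one group are joined by a line and the dotted line marks 6.5. Slc11a1, Slc7a7 and Slc7a5 show groups that lie apart by culture time, and Slc38a2 has the widest gap between the arrays of a group, from 5.56 to 6.94 with IFN-gamma at 16 hours.

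Of the 50 genes, 3 changed with culture time, both in medium and in IFN-gamma: Slc11a1 and Slc7a7 rose from 4 to 16 hours and Slc7a5 fell. The fall of Slc7a5 was 0.89 in medium and 0.55 in IFN-gamma, where the call was not kept under every alternative. With both treatments in 1 additive fit, Slc11a2 rose as well, and Slc44a1, Slc25a1 and Slc25a4 fell. None of the 50 passed the test for IFN-gamma at either time in the main fit, which has no block for the replicate number. With that block Slc31a1 passed at 16 hours. A gene was called at an adjusted p under 0.05 from limma, with Benjamini-Hochberg adjustment over all 12422 probe sets tested. The calls between 4 and 16 hours in medium were 2 higher and 1 lower among the 50 (6%), where 4.27% of all probe sets were called, 1.71% higher and 2.57% lower. In IFN-gamma they were again 2 higher and 1 lower, where 2.12% of all probe sets were called, 0.821% higher and 1.3% lower. Over both treatments 3 were higher and 4 lower (14%), against 11.6% of all probe sets, 3.98% higher and 7.64% lower. Among probe sets with a mean of 6.5 or more, 8.56%, 4.6% and 21.9% were called in these 3 comparisons, so the share of the 50 that changed was near, or below, that of other genes of this brightness.

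With the replicate number as a block, which removes a difference shared by all arrays of number 1, 5 of the 50 were called in medium, 8 in IFN-gamma and 16 over both treatments. In this fit 12.6%, 10.1% and 21.9% of all probe sets were called, and 22.8%, 18.7% and 36% of those with a mean of 6.5 or more, so the 50 again lay at or below genes of their brightness. Leaving out 1 array gave 1 to 3 calls in medium, 1 to 4 in IFN-gamma and 4 to 12 over both. The count of 7 over both treatments was 4 without either medium array at 4 hours, array 1 of medium at 16 hours or array 1 of IFN-gamma at 4 hours. It was 12 without array 2 of IFN-gamma at 16 hours. In medium the count of 3 was 1 without array 1 of medium at 4 hours, and 2 without array 2. In IFN-gamma it was 1 without either IFN-gamma array at 4 hours, 2 without any one of the 4 arrays of medium, and 4 without array 2 of IFN-gamma at 16 hours.

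The promoters of the called genes are shown so that those of the genes that rose, Slc11a1 and Slc7a7, can be set beside those of the genes that fell, Slc25a4, Slc25a1 and Slc44a1. RefSeq promoters were given for 40 of the 50 genes in build GRCm38.p6, and for 5 of the 7 called genes, not for Slc7a5 and Slc11a2. Each sequence is the 250 bases before a transcription start, 5′ to 3′ on the strand of the gene. Capitals mark matches, on either strand, to 6 motifs: a purine box (GAGGAA), an AP-1 site (TGANTCA), an interferon-gamma activated site (TTCNNNGAA), an E-box (CACGTG), an amino acid response element (TGATGNAA) and a CCAAT box (CCAAT). Slc11a1 is at chr1:74374953-74375202 on the plus strand, and Slc7a7 at chr14:54417945-54418194 on the minus strand, the most upstream of 5 starts listed for it. Slc25a4 is at chr8:46211063-46211312 and Slc25a1 at chr16:17928220-17928469, both on the minus strand. Slc44a1 is at chr4:53440163-53440412 on the plus strand, the most upstream of 2 starts.
Slc11a1: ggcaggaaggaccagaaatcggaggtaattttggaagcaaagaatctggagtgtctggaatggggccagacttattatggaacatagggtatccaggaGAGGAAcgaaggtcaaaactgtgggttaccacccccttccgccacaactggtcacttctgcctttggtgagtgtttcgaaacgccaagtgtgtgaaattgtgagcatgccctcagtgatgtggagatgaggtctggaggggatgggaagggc
Slc7a7: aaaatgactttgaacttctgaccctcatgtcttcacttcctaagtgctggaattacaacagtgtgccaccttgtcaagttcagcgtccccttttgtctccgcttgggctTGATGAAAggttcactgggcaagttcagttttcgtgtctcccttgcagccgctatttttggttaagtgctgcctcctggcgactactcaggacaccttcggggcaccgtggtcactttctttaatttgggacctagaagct
Slc25a4: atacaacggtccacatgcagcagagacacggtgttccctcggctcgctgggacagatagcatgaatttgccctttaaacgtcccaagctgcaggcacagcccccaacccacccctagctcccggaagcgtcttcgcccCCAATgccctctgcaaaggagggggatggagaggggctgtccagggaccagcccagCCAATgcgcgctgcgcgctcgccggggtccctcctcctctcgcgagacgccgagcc
Slc25a1: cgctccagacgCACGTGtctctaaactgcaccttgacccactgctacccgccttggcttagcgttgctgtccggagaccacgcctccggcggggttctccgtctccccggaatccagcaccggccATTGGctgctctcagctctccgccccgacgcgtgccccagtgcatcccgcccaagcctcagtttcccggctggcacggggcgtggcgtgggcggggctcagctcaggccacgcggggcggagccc
Slc44a1: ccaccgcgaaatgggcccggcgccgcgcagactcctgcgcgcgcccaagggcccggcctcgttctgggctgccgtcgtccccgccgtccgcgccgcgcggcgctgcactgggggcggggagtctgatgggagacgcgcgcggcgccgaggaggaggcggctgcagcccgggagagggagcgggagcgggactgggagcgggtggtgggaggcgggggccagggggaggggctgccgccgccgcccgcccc

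In these windows Slc11a1 had a purine box 152 to 147 bases before its start, and Slc7a7 had TGATGAAA, a match to the amino acid response element, at 141 to 134. Slc25a4 had the CCAAT box at 112 to 108 and again at 56 to 52, and Slc25a1 had it in reverse at 125 to 121, beside an E-box at 239 to 234. Slc44a1, whose window is 81.2% G and C, held none of the 6 motifs. Over the 32851 promoters of the table, 23.3% held the purine box, 6.75% the AP-1 site, 7.02% the interferon-gamma activated site, 6.02% the E-box, 3.45% the amino acid response element and 33.8% the CCAAT box. Over the 66 promoters of the 40 genes with an entry the shares were 19.7%, 3.03%, 1.52%, 6.06%, 6.06% and 28.8%. The searched motifs do not overlap one another in these windows, and a match is a description of the letters only.

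Among the 7 metal carriers, Slc11a1 rose in both treatments, and the others differed by less. Slc11a1, the natural resistance-associated transporter of phagosomes, read 7.21 and 7.16 in medium at 4 hours and 8.24 and 8.33 at 16 hours. In the cells given IFN-gamma the values were 6.98 and 7.02, then 8.16 and 8.27. All 4 arrays at 16 hours lay above all 4 at 4 hours, by about as much in either treatment. The log2 difference was 1.09 in medium (SE 0.11, 2.13-fold, limma adjusted p = 0.00101) and 1.22 in IFN-gamma (SE 0.11, 2.33-fold, adjusted p = 0.000959). It was called under every alternative and whichever array was left out, with adjusted p up to 0.0262 in medium and 0.0236 in IFN-gamma.

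Slc11a2, the proton-coupled importer of ferrous iron, read 6.75 and 6.72 in medium and 6.72 and 6.80 with IFN-gamma at 4 hours. At 16 hours it read 6.92 and 7.02, and 7.03 and 7.02. The groups did not overlap by time, but the step was small, 0.23 in medium and 0.26 in IFN-gamma, and neither passed alone. Over both treatments it was 0.25 (SE 0.07, limma adjusted p = 0.0422). That call was lost after median centring (adjusted p = 0.0737) and without any one array except array 2 of IFN-gamma at 16 hours, and adjusted p ran from 0.0141 with the block to 0.142 with the mean of its probe sets. Its dimmer probe set, at a mean of 5.21, differed by 0.07.

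Slc31a1, the copper importer of the plasma membrane, read 6.78 and 7.14 in medium and 7.10 and 7.44 with IFN-gamma at 4 hours. At 16 hours it read 6.98 and 7.35 in medium and 7.48 and 7.90 with IFN-gamma. In all 4 groups array 2 was the higher, and only with IFN-gamma at 16 hours were both arrays above every other array. Its difference with time over both treatments was 0.31 (SE 0.14, limma adjusted p = 0.173, range over the alternatives 0.00641 with the block to 0.372), and it passed without array 1 of both groups at 16 hours (0.51, adjusted p = 0.0376). In IFN-gamma it was 0.42 (SE 0.20, adjusted p = 0.404, range 0.0134 with the block to 0.788).

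The zinc carriers did not pass in the fit of all 8 arrays. Slc30a3, which loads zinc into vesicles, differed by 0.20 over both treatments (limma adjusted p = 0.152), and Slc39a4, a zinc importer, by 0.24 (adjusted p = 0.112, range over the alternatives 0.0409 to 0.854). Slc39a4 passed without array 2 of IFN-gamma at 16 hours, where it was 0.29 (adjusted p = 0.0409). Its value comes from a probe set of Affymetrix's r type, made with relaxed probe rules, and its other probe set differed by -0.19. Slc39a1, another zinc importer, differed by 0.02, and its group means spanned only 0.02. Slc39a7, which releases zinc from the secretory pathway, differed by -0.29 in medium and 0.13 in IFN-gamma. The median over the 7 metal carriers was 0.24, where it was -0.02 over the 50 genes and 0.06 over all probe sets. Heme, another source of iron, is moved by Slc48a1, which differed by 0.19 (adjusted p = 0.151).

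Among the 11 amino acid carriers Slc7a7 rose and Slc7a5 fell, and both encode light chains that pair with Slc3a2. Slc7a5 read 8.34 and 8.34 in medium and 8.11 and 8.09 with IFN-gamma at 4 hours. At 16 hours it read 7.41 and 7.48 in medium and 7.64 and 7.47 with IFN-gamma. Every array at 16 hours lay below every array at 4 hours. It fell by 0.89 in medium (SE 0.11, 1.86-fold, limma adjusted p = 0.00302) and by 0.55 in IFN-gamma (SE 0.11, 1.46-fold, adjusted p = 0.0385). The call in medium was lost without array 1 of medium at 4 hours (adjusted p = 0.0516, range 0.000333 to 0.0516). The call in IFN-gamma was lost without any one array except array 1 of IFN-gamma at 16 hours, after quantile normalization (adjusted p = 0.0699) and with only the 4 arrays compared (adjusted p = 0.144), and the range was 0.00604 with the block to 0.3. Over both treatments Slc7a5 fell by 0.72 (SE 0.09, adjusted p = 0.000792), a call kept under every alternative.

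Slc7a7, which exchanges cationic amino acids such as arginine for neutral ones, read 6.62 and 6.66 in medium and 6.49 and 6.46 with IFN-gamma at 4 hours. At 16 hours it read 7.41 and 7.49 in medium and 7.10 and 7.35 with IFN-gamma. The arrays at 16 hours were all higher, and those with IFN-gamma lay below those in medium at both times. It rose by 0.81 in medium (SE 0.12, 1.75-fold, limma adjusted p = 0.00678) and by 0.75 in IFN-gamma (SE 0.12, 1.68-fold, adjusted p = 0.0148). The call in medium was lost without array 1 or array 2 of medium at 4 hours (adjusted p = 0.0955 and 0.0832, range 0.000673 to 0.0955). The call in IFN-gamma was lost without array 1 or array 2 of IFN-gamma at 4 hours (adjusted p = 0.138 and 0.168) and with only the 4 arrays compared (0.0572), and the range was 0.00141 to 0.168.

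Slc3a2, the heavy chain CD98, read 9.46 and 9.49 in medium and 9.37 and 9.44 with IFN-gamma at 4 hours. At 16 hours it read 9.17 and 9.22, and 9.16 and 9.46. In medium both arrays at 16 hours lay below those at 4 hours, while in IFN-gamma the groups overlapped. The difference over both treatments was -0.19 (SE 0.09), which did not pass (limma adjusted p = 0.199). Without array 2 of IFN-gamma at 16 hours it was -0.26 and passed (adjusted p = 0.0347), and the range over the alternatives was 0.0347 to 0.597.

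**Figure D2:**
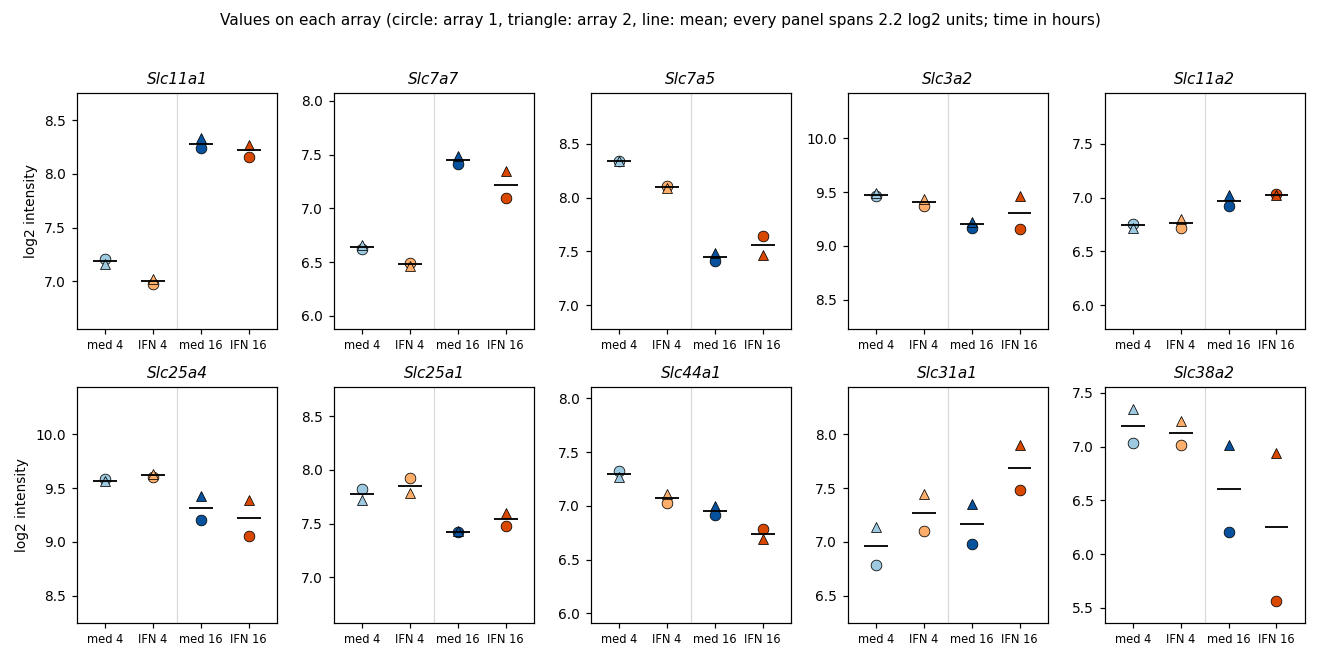
Log2 intensity on each array for 10 Slc genes, by group (med, medium; IFN, IFN-gamma; time in hours), with circles for array 1, triangles for array 2 and a line at the group mean; each panel spans the same log2 range from its own start. Slc11a1 and Slc7a7 are higher and Slc7a5 lower on all 4 arrays at 16 hours, and the arrays of Slc38a2 at 16 hours lie far apart.

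Slc38a2, a sodium-coupled carrier of glutamine and other small neutral amino acids, had the widest spread between arrays. It read 7.03 and 7.35 in medium and 7.02 and 7.24 with IFN-gamma at 4 hours, then 6.21 and 7.02, and 5.56 and 6.94, at 16 hours. Array 1 was the lower in every group, and with IFN-gamma at 16 hours it lay below the antisense level. The difference over both treatments was -0.73 (SE 0.27, limma adjusted p = 0.112, range 0.00610 with the block to 0.429). Over the alternatives this difference ran from -0.98 to -0.11. It passed without array 2 of medium at 16 hours (-0.92, adjusted p = 0.0431) and without array 2 of IFN-gamma at 16 hours (-0.98, 0.0225). In IFN-gamma it was -0.89 (adjusted p = 0.369, or 0.0319 with the block, range 0.0206 to 0.995). Over the alternatives the difference in IFN-gamma ran from -1.58 to -0.16. The 3 dimmer probe sets of Slc38a2, at means of 3.16, 2.50 and 2.01, lay below the antisense level.

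Slc1a5, a glutamine carrier, differed by -0.23 with time over both treatments (SE 0.08, limma adjusted p = 0.107, range 0.0252 with the block to 0.293). Slc6a6, the taurine carrier, read 8.23 and 8.24 in medium and 8.00 and 7.98 with IFN-gamma at 4 hours, and 7.83 and 8.20, and 7.59 and 7.82, at 16 hours. Its difference with time was -0.25 (SE 0.09, adjusted p = 0.123, range 0.0364 with the block to 0.517). The glycine carrier Slc6a9 differed by 0.07. Slc6a2, Slc6a13 and Slc1a2, carriers of the transmitters noradrenaline, GABA and glutamate, differed by 0.13, 0.12 and 0.25, and Slc38a10 by -0.05. None of these passed in the fit of all 8 arrays without the block. Slc6a6 passed without array 2 of medium at 16 hours (-0.33, limma adjusted p = 0.0412), and Slc1a2 without array 2 of IFN-gamma at 16 hours (0.31, adjusted p = 0.042).

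Of 11 mitochondrial carriers, 2 fell over both treatments and none rose. Among all probe sets with a mean of 6.5 or more, 691 of 4416 were called lower and 276 higher. A count of 2 in 11 is too small to be set apart from that share. Slc25a4, an ADP/ATP exchanger, read 9.58 and 9.57 in medium and 9.60 and 9.63 with IFN-gamma at 4 hours, and 9.20 and 9.43, and 9.05 and 9.39, at 16 hours. Slc25a1, which exports citrate from mitochondria for lipid synthesis, read 7.82 and 7.72, and 7.92 and 7.78, at 4 hours, and 7.42 and 7.43, and 7.48 and 7.60, at 16 hours. For both genes all 4 arrays at 16 hours lay below all 4 at 4 hours. Slc25a4 fell by 0.33 (SE 0.09, limma adjusted p = 0.0461) and Slc25a1 fell by 0.33 (SE 0.07, adjusted p = 0.0165).

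The call of Slc25a4 was lost after quantile normalization (limma adjusted p = 0.135) and without any one array except array 2 of medium or of IFN-gamma at 16 hours (range 0.00944 with the block to 0.164). With the block Slc25a4 passed in IFN-gamma too (-0.40, adjusted p = 0.0417, or 0.208 without it, range 0.0412 to 0.697), as it did without array 2 of IFN-gamma at 16 hours (-0.57, 0.0412). That of Slc25a1 was lost without either medium array at 4 hours, array 1 of medium at 16 hours or array 1 of IFN-gamma at 4 hours (range 0.00484 to 0.0695), and its dimmer probe set differed by -0.29. With the block Slc25a1 passed in medium (-0.34, adjusted p = 0.0453, or 0.141 without it, range 0.0453 to 0.61). Slc25a5, the closely related second ADP/ATP exchanger, differed by -0.07. Its probe set is of Affymetrix's f type, whose probes also match related sequences, so its signal may include that of relatives such as Slc25a4. Slc25a39, a carrier of glutathione into mitochondria, differed by -0.22 in medium and 0.22 in IFN-gamma. Slc25a28, a mitochondrial iron importer, and Slc25a20, the carnitine-acylcarnitine exchanger, differed by -0.07 and -0.05. The median of the 11 was -0.05.

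Outside the metal, amino acid and mitochondrial carriers, 1 of the 50 genes changed with time. Slc44a1, a choline carrier, read 7.32 and 7.27 in medium and 7.03 and 7.11 with IFN-gamma at 4 hours, and 6.91 and 7.0, and 6.78 and 6.69, at 16 hours. The values at 16 hours were all below those at 4 hours, and those with IFN-gamma were below those in medium at each time. It fell by 0.34 (SE 0.07, limma adjusted p = 0.0104) over both treatments, and this call was kept under every alternative but an adjusted p under 0.01. In medium it differed by -0.35 (adjusted p = 0.121, range 0.0365 with the block to 0.532) and in IFN-gamma by -0.34 (adjusted p = 0.164, range 0.0467 with the block to 0.722).

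The sugar carriers Slc50a1, Slc2a3 and Slc2a8 differed by 0.22, 0.21 and 0.13. The first 2 passed with the block (limma adjusted p = 0.0484 and 0.0432), against 0.106 and 0.227 without it (ranges over the alternatives 0.0484 to 0.267 and 0.0432 to 0.691). In IFN-gamma Slc50a1 differed by 0.34 (adjusted p = 0.162, range 0.0457 with the block to 0.597). The phosphate importer Slc20a1 differed by -0.30 (adjusted p = 0.13, range 0.00845 with the block to 0.556) and passed without array 2 of IFN-gamma at 16 hours (-0.39, 0.0331). Slc10a3 differed by -0.20 (adjusted p = 0.112, range 0.0385 with the block to 0.296). Slc9a3r1, the scaffold that tethers carriers and receptors to the actin cytoskeleton, differed by -0.23 (adjusted p = 0.0833, range 0.0363 with the block to 0.282). The nucleoside carrier Slc29a1, the folate carrier Slc19a1 and the vitamin C carrier Slc23a2 differed by 0.01, -0.13 and 0.09. The potassium-chloride cotransporters Slc12a4 and Slc12a7 differed by -0.04 and 0.19. Slc35b1, a nucleotide carrier of the endoplasmic reticulum, differed by -0.14.

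**Figure D3:**
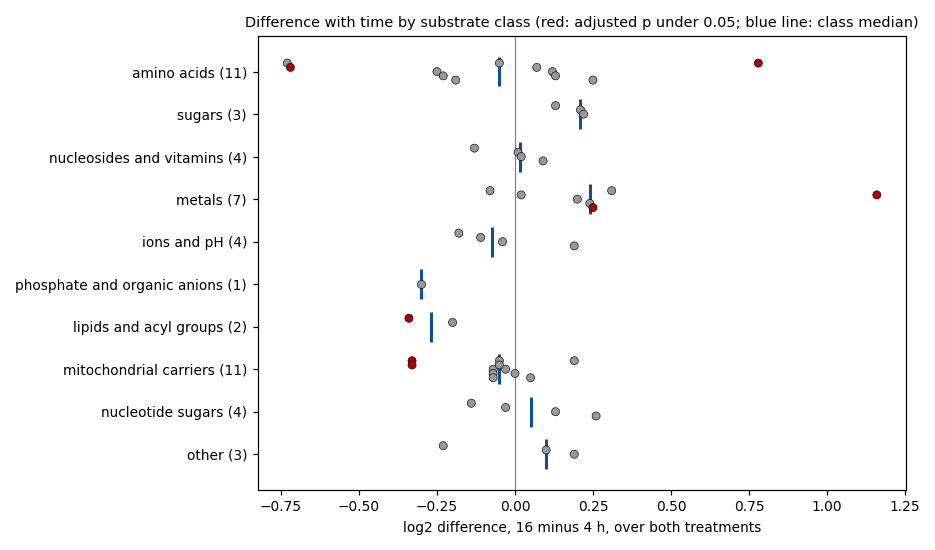
Log2 difference, 16 minus 4 hours over both treatments (horizontal axis), of each of the 50 Slc genes by substrate class, with the number of genes in brackets, red points at an adjusted p under 0.05 and a blue line at the class median. The metal carriers have a median of 0.24, and the 2 called mitochondrial carriers overlie each other at -0.33.

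The differences with time in medium and in IFN-gamma, which come from separate arrays apart from the shared estimate of spread, ran alike over the 50 genes. They had the same sign for 42 of 50 genes (84%), where 77.7% of all probe sets did, and Pearson's r across the 50 genes was 0.88, a description, since genes on the same arrays are not independent. Over the 46 genes that differed by under 0.5 in both it was 0.72, and over all probe sets 0.75. Among probe sets with a mean of 6.5 or more, 81.6% had the same sign and r was 0.82. In medium, 14 of the 50 had both arrays at 16 hours above both at 4 hours (28%), as had 30.8% of all probe sets, and 17 had both below (34%), as had 20.8%. In IFN-gamma 18 lay above (36%) and 11 below (22%), where 21.6% and 17.7% of all probe sets did. Among probe sets with a mean of 6.5 or more these shares were 25.1% and 36.6% in medium, and 20.7% and 29.4% in IFN-gamma.

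**Figure D4:**
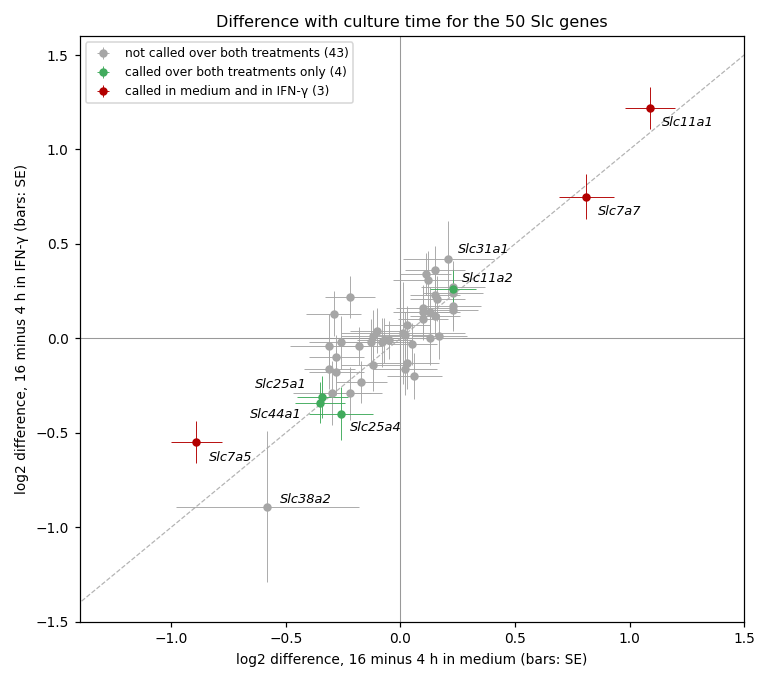
Log2 difference, 16 minus 4 hours, in medium (horizontal axis) and in IFN-gamma (vertical axis) for the 50 Slc genes, with bars for the SE and a dashed line at equal values. Slc11a1 (1.09 and 1.22), Slc7a7 (0.81 and 0.75) and Slc7a5 (-0.89 and -0.55) lie far from most others. So does Slc38a2 (-0.58 and -0.89), which was not called and has the longest bars.

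Markers of other cell types moved with time as well. Over all probe sets 1.71% were called higher and 2.57% lower in medium, and 0.821% and 1.3% in IFN-gamma. Over both treatments the shares were 3.98% and 7.64%. Of 12 measured macrophage markers, 10 were higher and 1 lower at 16 than at 4 hours in medium, and 8 higher and 1 lower in IFN-gamma. Their summed intensity was 2030 to 2090 in medium and 1570 to 1600 with IFN-gamma at 4 hours, and 4980 to 5780 and 3670 to 4460 at 16 hours. Vcam1 and Mrc1 lay at or below the antisense level in every group. Of 7 B cell markers 5 were higher over both treatments, with sums of 6320 to 7230 over the arrays at 4 hours and 7950 to 8480 at 16 hours. Of 6 markers of CD8- dendritic cells 3 were higher, Sirpa (0.55), Clec4a2 and Itgam, and 1 was lower over both treatments. Their sums were 858 to 1030 at 4 hours and 894 to 1220 at 16 hours. Clec4a2, and Cr2 among the higher B cell markers, lay at or below the antisense level in every group. Itgam, at a mean of 5.65, lay no higher than that level, so the size of these 3 changes cannot be read. Of 5 erythroid markers 2 were lower, Hba-a1 (-0.98) and Hbb-b2, and 4 of the 5 lay at or below the antisense level in every group. Of 11 markers of CD8+ dendritic cells 6 were lower, with sums of 4360 to 5050 and of 3470 to 4290. The part of these cells in the changes of Slc11a1, Slc7a7 and the other carriers was not tested.

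IFN-gamma changed none of the 50 genes by limma at 4 hours, at 16 hours, or in the additive fit over both times. Over all probe sets 0.258% were called at 4 hours, 0.258% at 16 hours and 0.531% over both times. At an unadjusted p under 0.05 there were 0, 1 and 4 of the 50 (0%, 2% and 8%), where 4.02%, 3.43% and 4.39% of all probe sets were. With the replicate number as a block 0, 1 and 1 were called, Slc31a1 both times, against 1.26%, 0.845% and 1.26% of all probe sets. The differences of the 50 genes ran from -0.27 to 0.31 at 4 hours and from -0.36 to 0.52 at 16 hours. A change of 1 log2 unit lay outside the 95% interval of all 50 genes at 4 hours and of 49 at 16 hours, and the interval lay within 0.5 either way for 42 and 43. In the median it reached 0.27 to either side. This interval is not adjusted for the number of probe sets, and a call needs a larger difference. At 4 hours Irf8, a marker of CD8+ dendritic cells, differed by 0.61 (SE 0.1) and did not pass (limma adjusted p = 0.0612). Larger differences at 4 hours did not pass either, those of Lyz2 (-0.83, SE 0.18, limma adjusted p = 0.172) and Csf1r (-0.73, SE 0.15, adjusted p = 0.148). Differences of this size could therefore be missed with these arrays, and larger ones where the SE is larger, as for Slc38a2 (SE 0.40).

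Slc31a1 had the largest difference at both times among the 50 genes. With the array values given above, it differed by 0.31 at 4 hours (SE 0.20), where the groups overlapped, and by 0.52 at 16 hours (SE 0.20, 95% interval 0.07 to 0.97), where they did not. The limma adjusted p was 1 at both times, and the block brought it to 0.184 and 0.0215. Over both times it differed by 0.42 (adjusted p = 0.563, range over the alternatives 0.00993 with the block to 1). Within each array number the IFN-gamma array was the higher at both times. Its dimmer probe set differed by 0.24 and 0.31 at 4 and 16 hours, and by 0.27 over both (adjusted p = 0.238, and 0.0738 in the blocked fit).

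At 4 hours the other largest differences were those of Slc25a5 (0.18, and 0.07 and 0.0 on its other probe sets), Slc39a7 (-0.27) and Slc6a6 (-0.24). Slc39a7 read 7.75 on both arrays of medium at 4 hours and 7.49 and 7.48 with IFN-gamma, then 7.38 and 7.54, and 7.51 and 7.72, at 16 hours. At 16 hours they were those of Slc25a39 (0.20), Slc38a2 (-0.36) and Slc6a6 (-0.31), and the difference of Slc38a2 was -1.05 to 0.33 when 1 array was left out. Over both times Slc25a28 differed by 0.11, Slc6a6 by -0.28 and Slc20a1 by -0.23. The limma adjusted p was 0.65 for Slc6a6 over both times (range over the alternatives 0.165 with the block to 1) and 1 for each of the others. The light chains Slc7a5 and Slc7a7 differed by -0.24 and -0.16 at 4 hours and by 0.11 and -0.22 at 16 hours, and Slc11a1 by -0.19 and -0.06. Slc3a2 differed by -0.07 and 0.11.

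**Figure D5:**
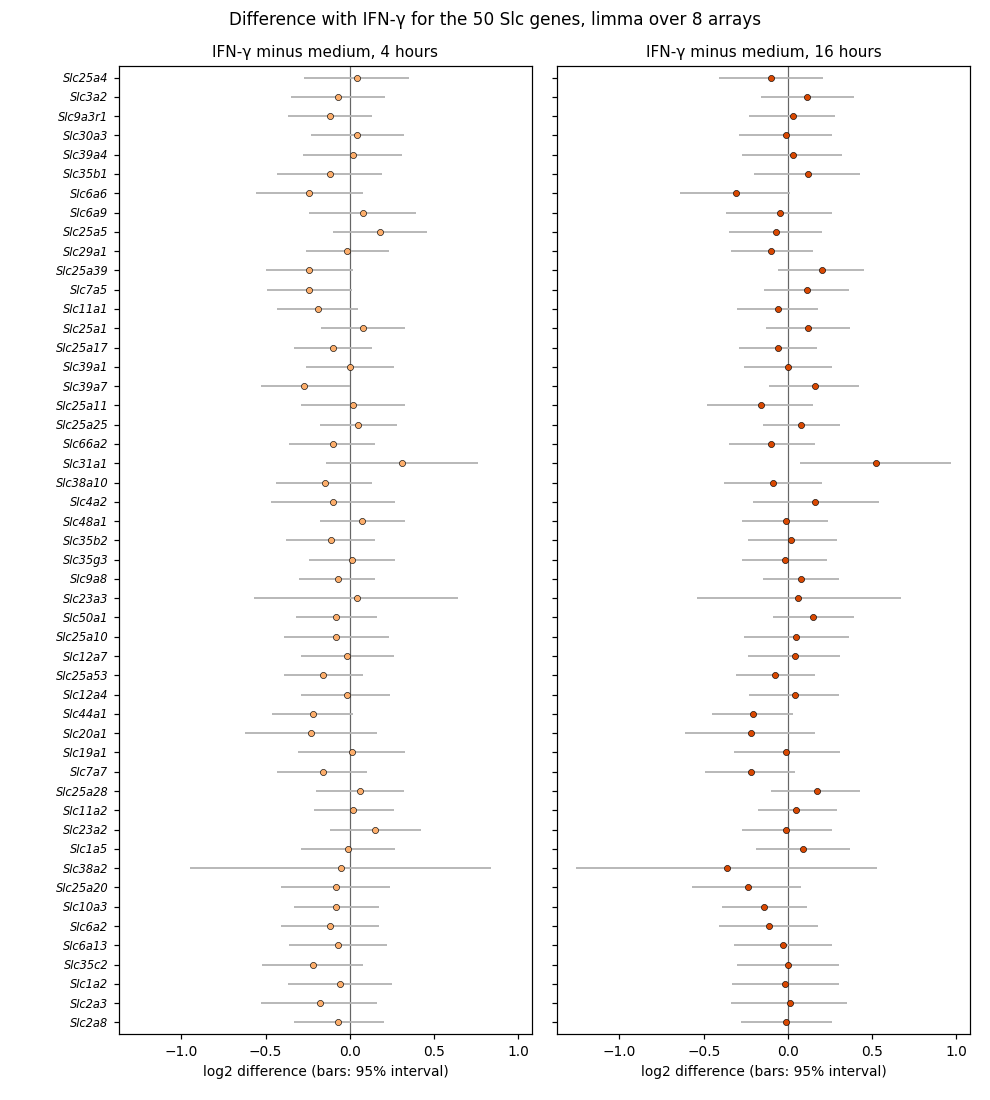
Log2 difference, IFN-gamma minus medium, of the 50 Slc genes at 4 hours (left) and 16 hours (right), with bars for the 95% interval, in order of mean level. The interval excludes 0 for Slc31a1 at 16 hours, and the widest intervals are those of Slc38a2.

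More of the 50 genes lay lower than higher with IFN-gamma at 4 hours. Both IFN-gamma arrays were below both arrays of medium for 23 of 50 genes (46%), where 17.9% of all probe sets and 22.3% of those with a mean of 6.5 or more lay so. Both were above for 5 (10%), against 15.4% and 15.8%. Among the 23 were Slc3a2, Slc7a5, Slc7a7, Slc11a1, Slc6a6 and Slc44a1, and the 5 were Slc25a4, Slc25a5, Slc25a25, Slc48a1 and Slc23a2. The median of the 50 was -0.07, against -0.01 over all probe sets. The Actb ratios given above differ between these groups, and so do the sums of the macrophage markers. Of those markers, 3 were lower with IFN-gamma over both times: Lyz2 (-0.80), Csf1r (-0.61) and Spic, the last at a mean of 5.41. The part of either in this count was not tested. At 16 hours 6 were below (12%) and 8 above (16%), against 9.85% and 9.1% of all probe sets and 8.81% and 14.5% of those with a mean of 6.5 or more, and the median was -0.01. Without the block none of these genes passed the test for IFN-gamma, and the counts themselves were not tested.

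Whether the IFN-gamma effect differed between the times was tested directly, and 0 of the 50 passed in limma, as did 0.0% of all probe sets. At an unadjusted p under 0.05 there were 3, Slc25a39, Slc39a7 and Slc7a5 (6%, against 2.84% of all probe sets), and the block called 0, against 0.242%. The difference of the effects, 16 minus 4 hours, was 0.44 for Slc25a39 (SE 0.16), 0.42 for Slc39a7 (SE 0.17) and 0.35 for Slc7a5 (SE 0.15), each with a limma adjusted p of 1. The lowest were -0.31 for Slc38a2 and -0.26 for Slc25a5. The other probe sets of Slc25a5, at means of 7.09 and 6.44, gave -0.17 and 0.28. Slc25a39 read 8.08 and 7.93 in medium and 7.82 and 7.71 with IFN-gamma at 4 hours, and 7.76 and 7.80, and 7.91 and 8.05, at 16 hours, so that the IFN-gamma arrays were the lower at 4 hours and the higher at 16 hours.

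Other genes tied to these carriers were read from lists drawn up for this purpose. Over all probe sets 1.71% were called higher and 2.57% lower with time in medium. Over both treatments these shares were 3.98% and 7.64%. Of 16 measured genes of the amino acid response, driven by the transcription factor ATF4, 0 rose and 5 fell with time in medium, and 1 rose and 8 fell over both treatments. Psat1, of serine synthesis, fell by 1.15, and Gars and Aars, tRNA synthetases, fell by 0.88 and 0.56 over both (limma adjusted p = 0.000269, 0.000528 and 0.000999). Slc7a5 and Slc38a2 are among the known targets of the same response, and their values were given above. Over both treatments Slc38a2 did not pass (-0.73, limma adjusted p = 0.112). Nor did the amino acid carriers Slc3a2 (-0.19, adjusted p = 0.199) and Slc1a5 (-0.23, adjusted p = 0.107), and the median of the 11 amino acid carriers was -0.05. The part of this response in the changes of the carriers was not tested. The median of the 16 was -0.34 over both treatments. Of 9 measured partners in iron handling, 3 rose over both treatments and 1 fell. Those that rose were Hmox1, which degrades heme (0.54), Fth1, the ferritin heavy chain (0.56), and Hfe, a regulator of iron uptake, whose mean of 5.0 lies below the antisense level, so that the size of its change cannot be read. Hmox1 is also on the list of macrophage markers.

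Of 9 measured chaperones and regulators of carriers 2 rose over both treatments and none fell: Emb, a partner of monocarboxylate carriers, by 0.62, and Txnip, which restrains glucose uptake, by 0.40. This list holds Slc9a3r1 too. Over all probe sets 3.98% were called higher and 7.64% lower over both treatments. Of 8 ion pumps 1 rose, Atp13a2 of the lysosome (0.62), and of 15 ABC transporters 1 rose, Abcc3 (0.41). Of 15 carriers of SLC families that carry no Slc symbol 2 were called higher, Npc1 (0.32) and Sfxn2, which at a mean of 5.63 lay no higher than the antisense level, and 1 lower, Sfxn1 (-0.33). With the block, the calls over both treatments were 1 higher and 10 lower for the amino acid response, 3 and 2 for iron handling, 2 and 1 for chaperones and regulators (the lower one Slc9a3r1), 1 and 0 for pumps, 2 and 3 for ABC transporters and 3 and 2 for the carriers without an Slc symbol. In that fit 21.9% of all probe sets were called. IFN-gamma changed no gene of these 6 lists by limma without the block. With the block, Npc1 (-0.37, adjusted p = 0.0399, or 0.238 without it) and Atf3 (0.40, 0.0298, or 0.437 without it) passed over both times. So did the cholesterol exporter Abca1, also at 16 hours, though its mean of 5.51 lay no higher than the antisense level.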

How the data were processed

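RNA of 8 samples was measured on Affymetrix MG-U74Av2 arrays. The authors deposited 1 intensity per probe set and array, and its values lie on a linear scale; the submitters' processing notes list RMA, whose version was not given in the sources used here. Here log2 was taken of these values, with no pseudocount and no further normalization. Of the probe sets, 66 controls were left out, which leaves 12422. Gene symbols came from the platform annotation, and all 50 matched RefSeq by gene number. Groups and array numbers came from the sample titles.

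Differences were tested with limma 3.58.1 in R 4.3.3 (lmFit, eBayes; two-sided tests) on a model of 4 group means over all 8 arrays, or of additive time and treatment, with Benjamini-Hochberg adjustment over all probe sets of a comparison. There were 7 comparisons. The difference between array 1 and array 2 correlated between groups with r from 0.367 to 0.740 in all 6 pairs of groups. Arrays of one number may thus be paired, though no label states this. The main fit does not use such a pairing. The fit with the block does, and it is given where it changes a call or a count. The scripts were tested on simulated data. Groups of 2 arrays are too small for a test of outlying arrays.

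The 50 genes, the classes, lists, motifs and the rule for named genes were chosen with earlier results of these data known. The rule names up to 12 called genes each way per comparison, the 8 brightest, a fixed set of 31, the 2 genes on each side of the limit, the 2 largest differences each way where none passed, and up to 3 genes per list. Names outside it complete a class. Alternatives were quantile normalization, median centring, a trended and robust prior, leaving out the dimmest 40% of probe sets, only the arrays compared, the block, each array left out, an adjusted p under 0.01, the mean of a gene's probe sets, and a limit of 6 or 7. Leaving out array 1 of both groups at 16 hours was added after seeing the data.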

Additional observations from a re-analysis of the deposited data

How the results depend on the processing

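With the replicate number as a block, 5 of the 50 Slc genes were called with time in medium, 8 in IFN-gamma and 16 over both treatments, against 3, 3 and 7 without it (12.6%, 10.1% and 21.9% of all probe sets with it), and 1 was called with IFN-gamma at 16 hours and 1 over both times, against 0. It lost no call. Leaving out 1 array gave 1 to 3 calls with time in medium, 1 to 4 in IFN-gamma and 4 to 12 over both treatments, and 0 calls in each IFN-gamma comparison. Where an array was left out, its lone partner was assumed to vary like the other groups. With only the 4 arrays compared, 1 gene was called with time in IFN-gamma. At an adjusted p under 0.01 there was 1 call with time in IFN-gamma and 3 over both treatments. Of 201 values of called genes under an alternative, 163 stayed past the threshold, 38 did not and 0 changed sign; 27 values of uncalled genes passed. Of 3069 values of uncalled genes 197 changed sign. With 2 arrays a group and intervals of about 0.27 either way, small changes of dim carriers cannot be resolved.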

Other observations

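Of the 101 Slc genes with a mean log2 intensity below 6.5, 17 had a group mean above the antisense level in all 4 groups and 77 in none, taking as that level the highest of the 8 array medians, 5.93. Over both treatments 3 of the 101 passed with time in limma, where 11.6% of all probe sets did. A block for the replicate number gave 13, 10 higher and 3 lower, where 21.9% of all probe sets were called. Slc8a1, the sodium-calcium exchanger, read 5.57 and 5.61, and 5.35 and 5.73, at 4 hours, and 6.12 and 6.64, and 5.94 and 6.40, at 16 hours. It passed (limma adjusted p = 0.00833), with a difference of 0.71 (SE 0.14). Its values at 4 hours lay no higher than the antisense level, so that the size of the rise cannot be read. Slc22a23 and Slc16a7 passed as well (adjusted p = 0.0026 and 0.0305) but lay below that level in all groups, so that the size of their changes cannot be read. The cationic amino acid carriers Slc7a1 and Slc7a2, the cystine carrier Slc7a11, Slc7a8, the glucose carrier Slc2a1, the lactate carrier Slc16a1, the zinc exporter Slc30a1 and Slc12a2 had group means below 5.93 throughout, and Slc2a1, at a mean of 5.80, came closest to it, so how far they changed cannot be read. Slc25a3, the mitochondrial phosphate carrier, was above that level in every group, at a mean of 6.34, and none of its differences passed. Slc40a1, Slc16a3, Slc15a3, Slc15a4 and Slc31a2 were not analysed here.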
